A study of Mus musculus with 56 samples.

Results

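The proteasome subunit genes were the members of the deposited count table whose mouse symbol begins with Psma, Psmb, Psmc, Psmd, Psme, Psmf or Psmg and a digit, and which are annotated as protein-coding. Of the 57010 genes in the table, 54 symbols met that pattern, 4 of them were pseudogenes, and 50 were kept. They comprised 8 genes of the 20S alpha ring, 7 of the constitutive 20S beta ring, 4 of the immunoproteasome and thymoproteasome, 6 ATPases and 11 other subunits of the 19S particle, 6 activator and inhibitor genes, 4 chaperones of 20S assembly and 3 of 19S assembly. 1 more, Psmc3ip, shares the pattern but encodes a protein of meiotic recombination and no subunit. The filter on low counts left 44 members to test in ribosomal RNA, 47 members in total RNA and 46 members for the contrasts of RNA types. The members left out in ribosomal RNA were Psma8 (5 counts over the 28 ribosomal libraries), Psmb11 (0), Psmb9 (51), Psmc3ip (63), Psme2 (145) and Psme2b (31). The 4 pseudogenes held 0 to 12 counts each over the 56 libraries.

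The 28 mice were 20 to 22 weeks old and all carried a GFP-tagged L10A ribosomal protein switched on by a Cre recombinase under the Mlc1f promoter, which is active in skeletal muscle fibres. Controls had this tag alone, and labelled knockouts had in addition a floxed Elavl1, the gene of the RNA-binding protein HuR, so both carried Cre. Each of the 4 groups (female controls, female labelled knockouts, male controls, male labelled knockouts) held 7 mice, and each mouse gave 1 library of RNA isolated with tagged ribosomes (ribosomal RNA) and 1 of RNA from the whole gastrocnemius, a calf muscle of mostly fast fibres (total RNA). The design text gives 7 male and 7 female mice, the treatment protocol gives 14 of each sex, and the libraries follow the latter.

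The proteasome is the protease that degrades most ubiquitin-tagged proteins of the cell. A barrel of alpha and beta rings holds the catalytic sites, and the 19S particle binds ubiquitin, removes it and unfolds the substrate with a ring of ATPases. In skeletal muscle the system breaks down contractile proteins during wasting, fed by ubiquitin ligases such as Fbxo32 and Trim63, and the transcription factor Nfe2l1 raises proteasome genes when the protease is short.

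Promoter windows from RefSeq (build GRCm38.p6, 250 bases before to 50 bases after the gene's start) matched 42 members. The windows of Psmd8 and Psme4 are shown because these genes carried the changes described below in both RNA types. Capitals mark the GC box (GGGCGG, on either strand) and, in Psme4, the core of the antioxidant response element (TGACNNNGC, here on the reverse strand), the element that Nfe2l1 and its relatives are known to bind. The Psmd8 window is at chr7:29180624-29180923 on the minus strand and the Psme4 window at chr11:30771525-30771824 on the plus strand.
Psmd8: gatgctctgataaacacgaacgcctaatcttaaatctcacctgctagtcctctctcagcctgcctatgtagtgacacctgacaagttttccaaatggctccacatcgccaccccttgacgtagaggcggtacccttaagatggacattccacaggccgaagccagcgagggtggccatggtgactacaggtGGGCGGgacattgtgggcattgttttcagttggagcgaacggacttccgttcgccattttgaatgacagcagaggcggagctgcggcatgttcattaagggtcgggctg
Psme4: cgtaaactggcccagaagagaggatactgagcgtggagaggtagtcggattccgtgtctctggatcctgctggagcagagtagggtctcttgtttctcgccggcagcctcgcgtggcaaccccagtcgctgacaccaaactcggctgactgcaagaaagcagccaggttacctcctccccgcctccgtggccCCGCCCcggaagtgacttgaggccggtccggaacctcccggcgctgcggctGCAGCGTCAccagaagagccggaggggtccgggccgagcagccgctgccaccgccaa

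Psmd8 held 1 GC box and Psme4 held 1 GC box and 1 response element core. Both strands were searched, and overlaps were counted. Among the 42 windows, 23 (54.8%) held a GC box, against 38.2% of the windows of 27025 genes. A CCAAT box (CCAAT) was found in 15 (35.7%), against 41.1% of all windows. The response element core was found in 6 (14.3%), against 14% of all windows. In the same build, the longest annotated 3' UTR of the members had a median of 295 bases, with a range of 44 to 3321. Of the 47 members tested in total RNA, 17 (36.2%) held an ATTTA pentamer there and 4 (8.51%) a TATTTAT heptamer, AU-rich letters of the kind HuR is known to bind. Among 11619 genes tested in total RNA, the median length was 1260 bases, and 71.7% and 31.4% held these letters. The 3' UTRs of Psmd8 (1193 bases) and Psme4 (702 bases) held 0 ATTTA pentamers each.

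Values are CPM, counts scaled to a common library size, set within each RNA type by TMM factors. The libraries are made from the 3' end of transcripts and the values are not divided by length, so levels are compared between libraries and not between genes. Depth ran from 0.16 to 3.58 M counts in the ribosomal libraries, with a median of 1.62 M, and from 2.43 to 5.85 M counts in the total libraries, with a median of 3.56 M. The 3' tags of Elavl1 did not pass the test. Their log2 change was 0.27 in females and 0.29 in males in ribosomal RNA (edgeR adjusted p = 0.206 and 0.234) and −0.01 and −0.14 in total RNA (adjusted p = 0.969 and 0.477). A 3' tag can lie outside a deleted part, so this checks no label, and mice are called labelled knockouts throughout. Fast fibre markers, listed with the other cell types' markers from general knowledge, stood as the tissue label has it: 7 of 8 in females and 6 of 8 in males were higher in ribosomal than in total RNA of controls (Myh1 was lower in males, at −0.79), and all 8 endothelial and all 8 fibroblast markers were lower in both sexes. Of all genes, 30.1% in females and 32.1% in males were higher, and 38.1% and 38.6% lower. Only 6 endothelial and 7 fibroblast markers passed the filter on low counts in ribosomal RNA alone. For the others the lower value is a description and no test. In ribosomal RNA of female labelled knockouts, 3 of 4 leukocyte markers tested, 6 of 6 endothelial, 7 of 7 fibroblast, 5 of 5 erythroid and 6 of 6 mitochondrially encoded mRNAs rose. Of all genes, 16.8% changed there in either direction. Male labelled knockouts had the 5 erythroid markers higher, with 8.96% of all genes changed in ribosomal RNA. Total RNA is from whole tissue, so a change in cells of a type and in RNA per cell cannot be told apart there. Ribosomal RNA was isolated with tagged ribosomes, and how these markers came to rise in it was not tested.

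The ribosomal libraries of female controls 18 and 19 and male control 20 stood apart in the proteasome genes and were singled out after their values were seen. They held 0.575, 0.423 and 0.705 M counts, with 9.31, 9.999 and 9.45% of reads outside genes, against 5.001 to 5.46% in the other female and 4.82 to 6.08% in the other male controls. Members summed to 18405, 17473 and 15680 CPM in them, against 7952 to 10800 CPM in the other female and 8305 to 10212 CPM in the other male controls. These sums carry the TMM factors of the libraries. As a share of all gene counts, without TMM factors, members held 1.352, 1.126 and 1.142%. The other female controls held 0.983 to 1.169% and the other male controls 0.961 to 1.12%, so the unscaled excess was small or absent. Of the 44 members tested, 25 were above every other female control in both female libraries, 27 were above every other male control in male control 20, and 22 were above in both sexes. The share of all genes that did so was not computed. These counts therefore describe the libraries and do not show a trait particular to proteasome genes. The base scaffold gene Psmd1 was at 2630 and 2441 CPM in female controls 18 and 19, against 357 to 679 CPM in the other 5. It was at 1505 CPM in male control 20, against 366 to 532 CPM in the other 6. The ATPase gene Psmc1 was at 1477 and 1538 CPM against 279 to 505 CPM, and at 1287 against 293 to 430 CPM. In total RNA of the same mice neither gene stood out: Psmd1 was at 362 and 382 CPM within the range of the other female controls (350 to 559), and at 323 CPM in male control 20, beside 334 to 454. Psmb1, Psmc3, Psmd4, Psmd14 and Psmg1 also had a ratio over 2 to the other controls in both sexes. Psmd8 (ratio 1.11 in females and 1.16 in males), Psme4 (0.93 and 0.79) and Psmd6 (0.99 and 0.92) differed little. Fast fibre markers summed to 145120, 175427 and 136823 CPM in the 3 libraries, against 55395 to 82722 CPM in the other controls, and the 9 mitochondrially encoded mRNAs of the marker list to 5257, 6211 and 7918 CPM against 1276 to 3490 CPM. The part of fibre content, depth and RNA quality in these values was not tested.

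**Figure D1:**
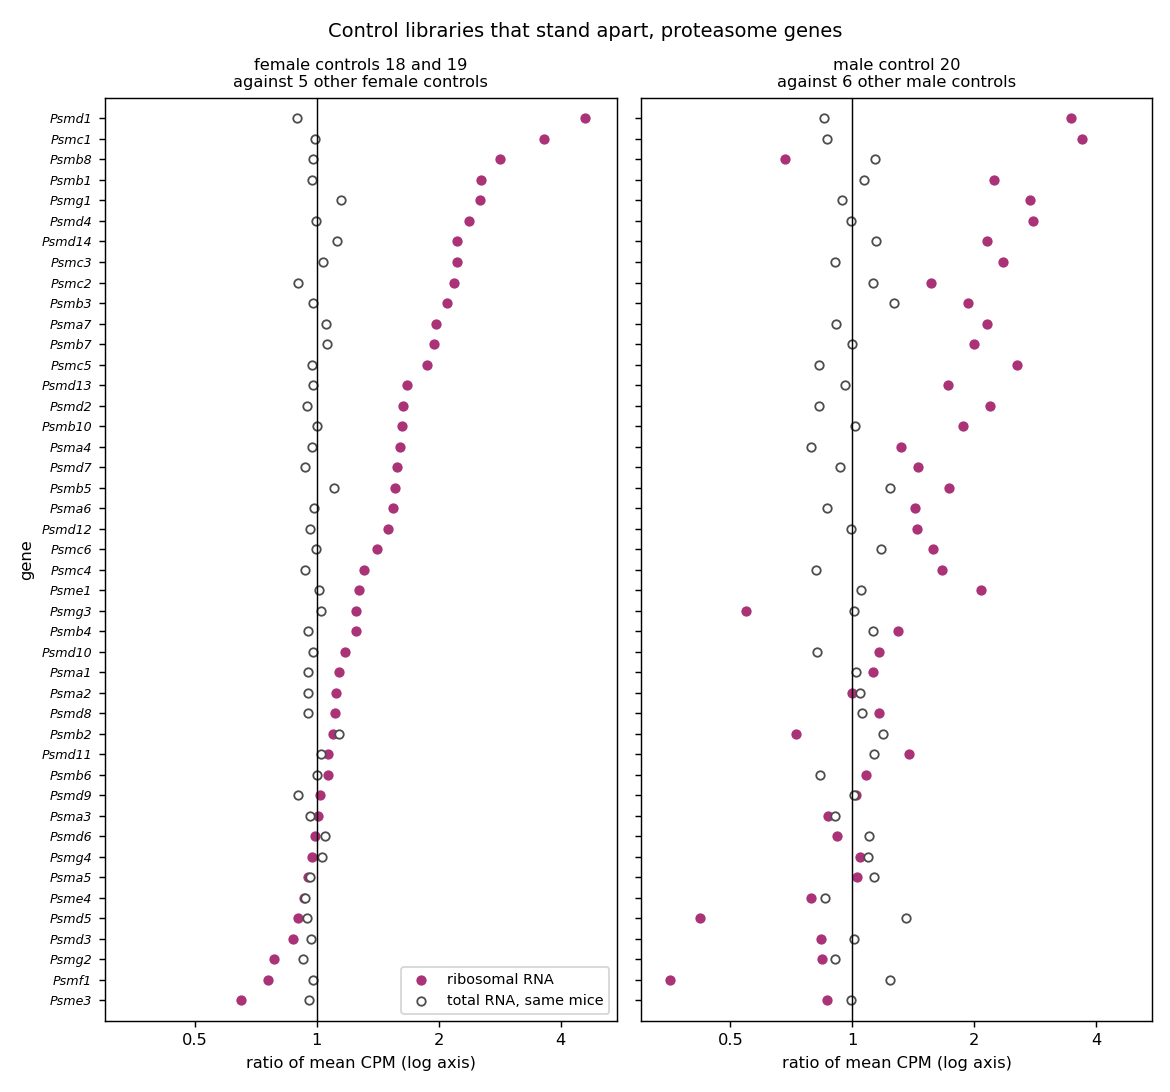
Ratio of mean CPM (log axis) of each proteasome gene in female controls 18 and 19 to the 5 other female controls (left) and in male control 20 to the 6 other male controls (right), in ribosomal RNA (filled) and in total RNA of the same mice (open). The filled points reach 4.59 for Psmd1 in females and 3.69 for Psmc1 in males, while the open points of Psmd1 and Psmc1 lie at or below 1.

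The median coefficient of variation of 44 members was 24.5% in ribosomal RNA of female controls and 22.7% in that of male controls. In total RNA of these groups it was 15.3% and 11.3%. The ribosomal values include the 3 libraries that stood apart.

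Which proteasome genes differ between labelled knockouts and controls was asked in each sex and RNA type. Most members did not pass, and those that did went both ways. Females had 2 of 44 members higher and 5 lower in ribosomal RNA, while 16.8% of all genes tested changed in either direction. Males had 2 lower in ribosomal RNA, with 8.96% of all genes changed. Of 47 members in total RNA, 2 fell in females, with 8.49% of all genes changed. In males 3 rose and 4 fell in total RNA, with 14.2% of all genes changed. As the mean of both sexes, 2 rose and 3 fell in ribosomal RNA (20.2% of all genes changed), and 4 rose and 7 fell in total RNA (24.8%). The members' shares of calls were thus near or below those of all genes. The members' median log2 change was −0.03 in females and −0.05 in males in ribosomal RNA (all genes −0.02 and −0.01), and 0.02 and 0.07 in total RNA (all genes 0.01 and 0.00). Members whose 7 labelled knockouts lay wholly on 1 side of the 7 controls were Psma1 in ribosomal RNA of females (2.56% of all genes did so in either direction), Psmd9 in that of males (2.57%), and Psmd8 and Psmd12 in total RNA of males (2.12%). Every member overlapped in total RNA of females (2.59% of all genes did not). Leaving out 1 library moved some counts of members called by more than 1.5 times. They fell to 4 in ribosomal RNA of females (without female control 15), to 1 in that of males (without labelled knockout 13), to 0 in total RNA of females (without female control 21), to 3 in that of males (without labelled knockout 10), and to 6 as the mean in total RNA (without male control 25). The shares of all genes in these fits are not given, so the falls describe the counts and show no trait of proteasome genes.

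**Figure D2:**
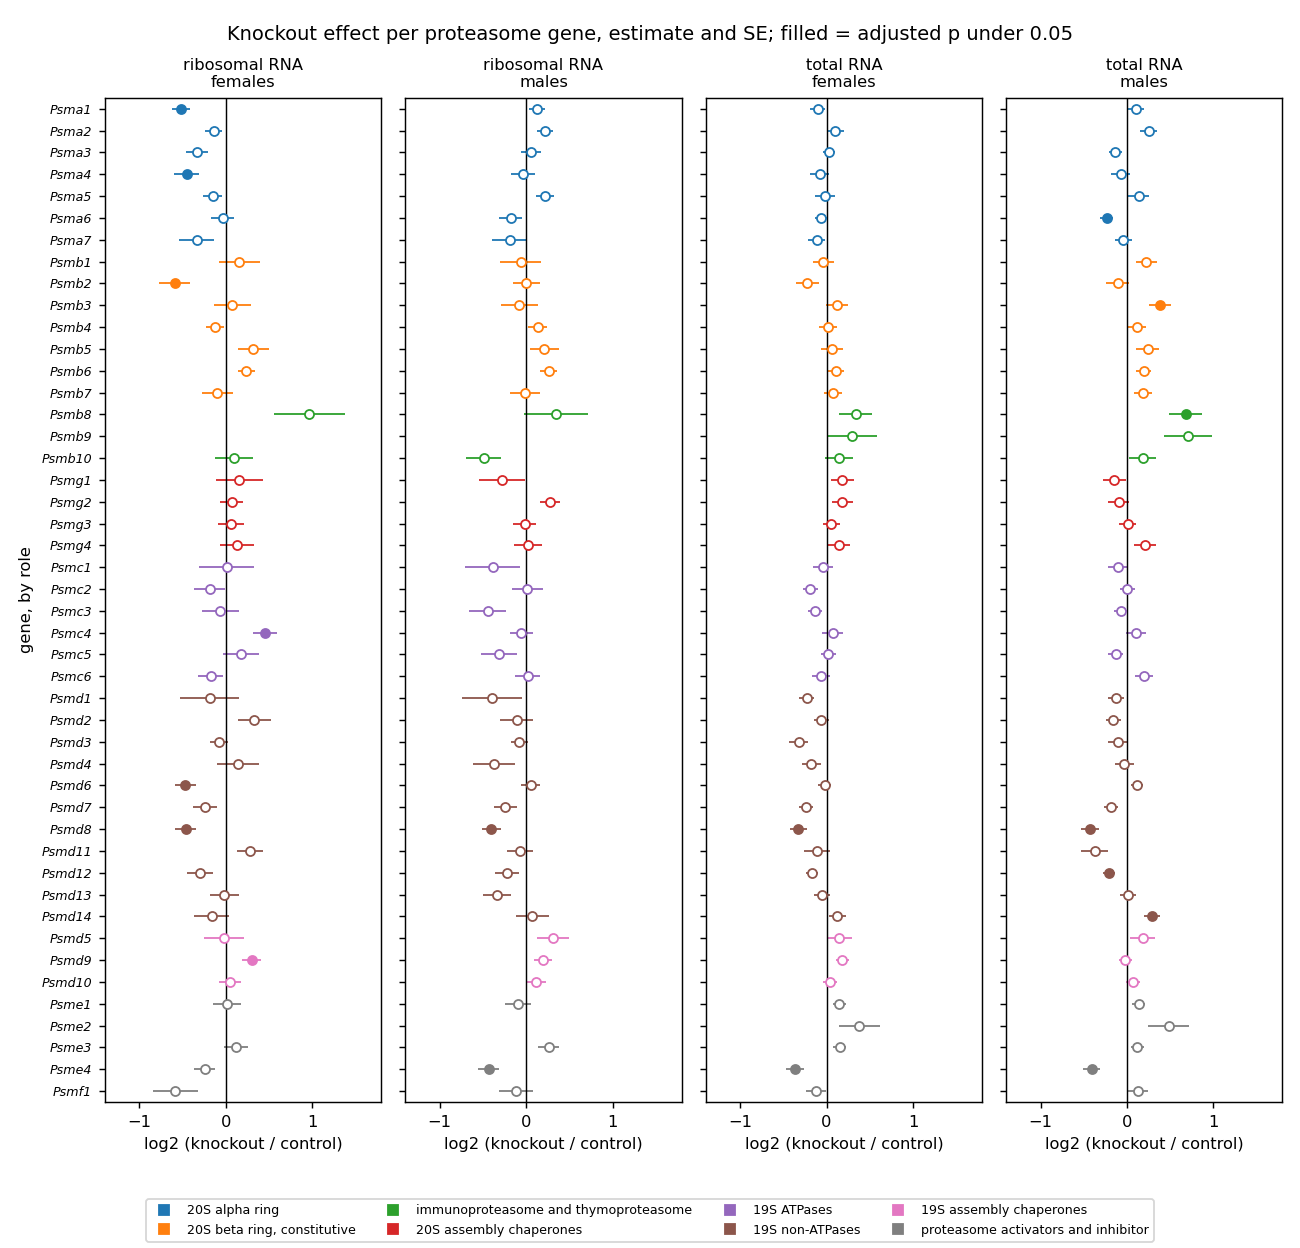
Log2 ratio of labelled knockouts to controls (x axis, estimate with standard error as bars) for each member tested, ordered and coloured by role, in ribosomal and total RNA of each sex; filled points passed an adjusted p of 0.05. Psmd8 is filled in all 4 panels and Psme4 in 3, at log2 values between −0.46 and −0.33 and between −0.43 and −0.37.

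Psmd8 encodes a lid subunit of the 19S particle, the part that carries the deubiquitinase. It fell in labelled knockouts of both sexes and in both RNA types. In ribosomal RNA it ran from 374 to 561 CPM (median 474) in female controls and from 269 to 488 CPM (median 323) in female labelled knockouts. In males it ran from 542 to 778 CPM (median 672) in controls and from 473 to 584 CPM (median 507) in labelled knockouts. Thus 5 of 7 female and 4 of 7 male labelled knockouts were below every control of their sex. In total RNA the range was 326 to 612 CPM (median 413) in female controls and 307 to 386 CPM (median 341) in female labelled knockouts. Male controls ran from 530 to 670 CPM (median 592) in total RNA and labelled knockouts from 393 to 527 CPM (median 426), so the male groups did not overlap, while 2 of 7 female labelled knockouts lay below all controls. The log2 change was −0.46 (SE 0.118, adjusted p = 0.0056) in females and −0.40 (SE 0.115, adjusted p = 0.0221) in males in ribosomal RNA. In total RNA it was −0.33 (SE 0.101, adjusted p = 0.0402) in females and −0.43 (SE 0.101, adjusted p = 0.0060) in males. As the mean of both sexes, Psmd8 fell by 0.43 in ribosomal and by 0.38 in total RNA on the log2 scale (adjusted p = 0.000226 and 0.000324), and both calls held when any 1 of 28 libraries was left out. The female call in total RNA was lost without any of 10 of 14 libraries (log2 values of −0.37 to −0.21, adjusted p up to 0.160 without 1 library). The female call in ribosomal RNA was lost without the 7 ribosomal libraries under 0.75 M counts (−0.36, adjusted p = 0.0711). The male call in ribosomal RNA was lost without labelled knockout 13 or 14 (adjusted p = 0.0551 and 0.0566).

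Psme4 encodes PA200, an activator that caps the 20S barrel and is known for the degradation of acetylated histones. It fell in total RNA of both sexes and in ribosomal RNA of males. In total RNA it ran from 421 to 683 CPM (median 475) in female controls and from 347 to 452 CPM (median 394) in female labelled knockouts. In males it ran from 460 to 690 CPM (median 514) in controls and from 359 to 473 CPM (median 422) in labelled knockouts. Below every control of their sex were 5 of 7 female and 6 of 7 male labelled knockouts. In ribosomal RNA, male controls ran from 608 to 962 CPM (median 723) and male labelled knockouts from 387 to 712 CPM (median 552), with 6 of 7 below all controls. Female controls ran from 528 to 646 CPM (median 590) and female labelled knockouts from 420 to 577 CPM (median 488). The log2 change was −0.37 (SE 0.102, adjusted p = 0.021) in females and −0.41 (SE 0.102, adjusted p = 0.0090) in males in total RNA. In ribosomal RNA it was −0.43 (SE 0.117, adjusted p = 0.0149) in males and −0.25 (SE 0.119, adjusted p = 0.155) in females. The mean of both sexes fell by 0.39 in total and by 0.34 in ribosomal RNA (adjusted p = 0.000261 and 0.0034). Without male control 21 the male value in ribosomal RNA was −0.36 (adjusted p = 0.0532), and the female call in total RNA was lost without female control 14 or 21 (adjusted p = 0.0707 and 0.0588).

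**Figure D3:**
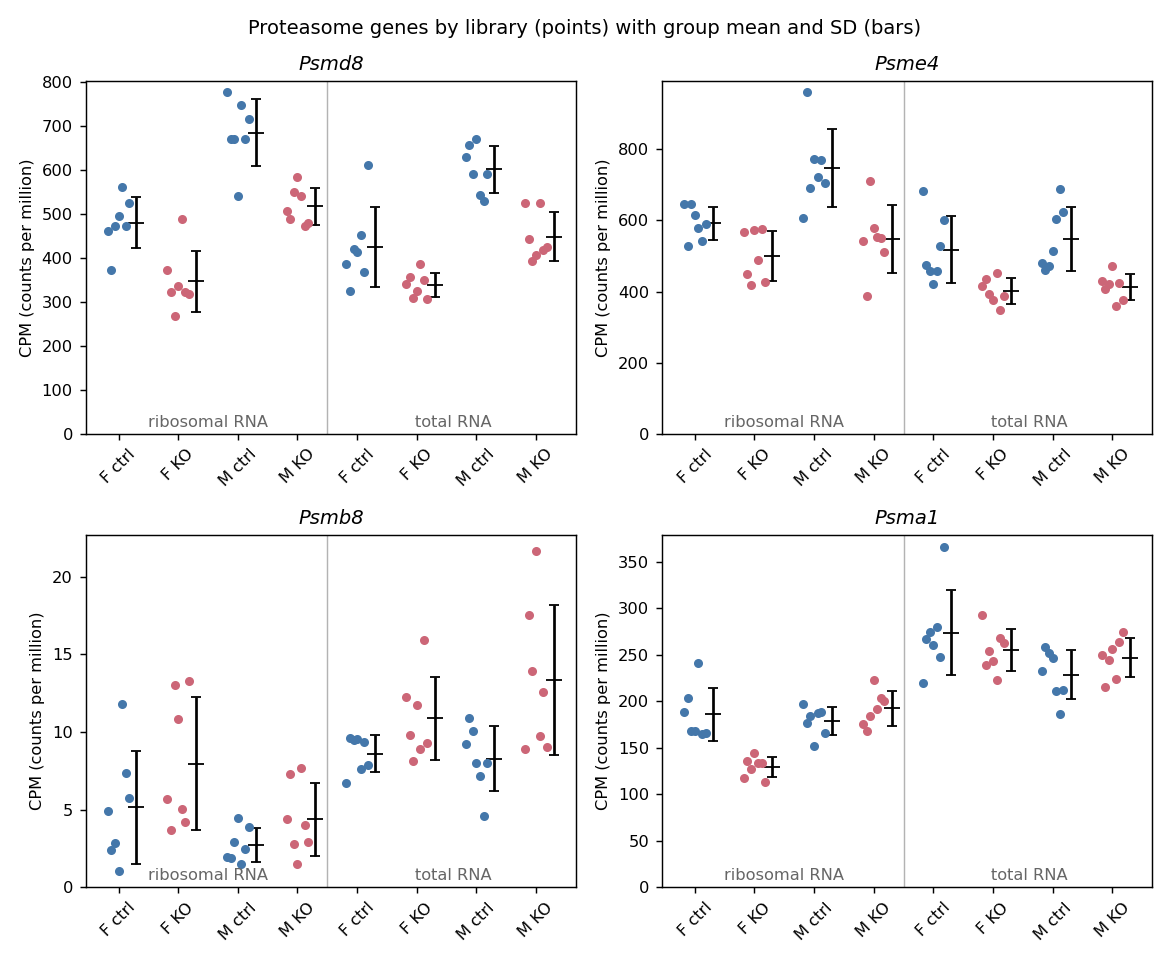
CPM of Psmd8, Psme4, Psmb8 and Psma1 in every library (points; blue, controls; red, labelled knockouts) with group mean and SD (bars, n = 7), in ribosomal and total RNA of females (F) and males (M). For Psmd8 the male total RNA groups do not overlap (393 to 527 CPM in labelled knockouts, 530 to 670 in controls), and for Psma1 the female ribosomal RNA groups do not (113 to 144 against 165 to 241 CPM).

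Among the catalytic subunits of the immunoproteasome, which interferon induces and which cuts peptides for antigen presentation, Psmb8 rose in total RNA of males. It ran from 4.60 to 10.9 CPM (median 8.01) in male controls and from 8.93 to 21.7 CPM (median 12.6) in male labelled knockouts, 4 of which were above every control. In females it ran from 6.74 to 9.63 CPM (median 9.37) in controls and from 8.15 to 15.9 CPM (median 9.82) in labelled knockouts. The log2 change was 0.68 (SE 0.189, adjusted p = 0.0168) in males, 0.34 (SE 0.195, adjusted p = 0.303) in females and 0.51 (SE 0.136, adjusted p = 0.0068) as the mean of both sexes. Without male labelled knockout 10 the male value was 0.52 (adjusted p = 0.0541), while the mean of both sexes passed without any 1 library. In ribosomal RNA Psmb8 was at 1.03 to 11.8 CPM in female controls and 3.67 to 13.3 CPM in female labelled knockouts, a log2 difference of 0.97 (SE 0.412, adjusted p = 0.105). Psmb9, its partner subunit, was at 0.92 to 8.63 CPM (median 5.22) in total RNA of male controls and 5.38 to 18.2 CPM (median 8.55) in male labelled knockouts, a log2 difference of 0.70 (SE 0.280, adjusted p = 0.0858). Psmb10, the other catalytic subunit, had log2 differences of 0.18 (adjusted p = 0.461) in males and 0.14 (adjusted p = 0.646) in females. Leukocytes hold these subunits at high levels. The 10 leukocyte markers summed to 94.9 to 194 CPM in total RNA of female controls and 192 to 269 CPM in female labelled knockouts, and to 105 to 410 and 210 to 336 CPM in males. In total RNA 3 of 8 leukocyte markers tested rose in females and 1 of 8 in males, while 8.49% and 14.2% of all genes changed in either direction. Cd79a was at 0 in 3 of the 4 total RNA groups. The part of leukocytes in the Psmb8 values was not tested.

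In ribosomal RNA of females, 3 genes of the 20S barrel fell. Psma1, an alpha ring subunit, ran from 165 to 241 CPM (median 168) in controls and from 113 to 144 CPM (median 133) in labelled knockouts, so the groups did not overlap. Its log2 change was −0.52 (SE 0.103, adjusted p = 0.000561), and it stayed between −0.55 and −0.47 when 1 library was left out. In males Psma1 ran from 152 to 197 CPM (median 184) in controls and from 168 to 223 CPM (median 192) in labelled knockouts, a log2 difference of 0.12 (adjusted p = 0.478). Psma4, another alpha ring subunit, changed by −0.45 (SE 0.147, adjusted p = 0.0289), with 4 of 7 labelled knockouts below all controls. Psmb2, a beta ring subunit without a catalytic site, changed by −0.59 (SE 0.184, adjusted p = 0.0231), from 26.6 to 51.0 CPM (median 36.7) in controls to 19.5 to 42.8 CPM (median 24.7). Both calls were lost when single libraries were left out: Psma4 without any of 5, with female control 18 giving the highest adjusted p (0.0679), and Psmb2 without female control 15 or 17 or female labelled knockout 5 (adjusted p up to 0.0667).

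Of the 19S genes, Psmd6, a lid subunit, fell in the same samples. It ran from 142 to 207 CPM (median 175) in female controls and from 76.0 to 171 CPM (median 126) in female labelled knockouts, 6 of which were below every control. The log2 change was −0.47 (SE 0.122, adjusted p = 0.0071). The value in total RNA of females was −0.02 (adjusted p = 0.885). Psmc4, an ATPase, rose by 0.45 (SE 0.142, adjusted p = 0.0246), from 71.9 to 121 CPM (median 92.5) to 110 to 160 CPM (median 115). Psmd9, a chaperone of the ATPase ring, rose by 0.30 (SE 0.107, adjusted p = 0.0498) in females, from 63.2 to 82.8 CPM (median 75.7) to 77.6 to 119 CPM (median 86.8). In males it was at 62.4 to 64.5 CPM in controls and 64.9 to 86.9 CPM in labelled knockouts, 7 of 7 above the controls, with a log2 value of 0.19 (adjusted p = 0.246). As the mean of both sexes Psmd9 rose by 0.25 (adjusted p = 0.0147). So did Psmb6, a catalytic subunit of the constitutive barrel, by 0.25 (adjusted p = 0.0095), with 5 of 7 female and 6 of 7 male labelled knockouts above all controls of their sex. With no low-count filter 0 members rose and 5 fell, in females and as the mean alike. The rises of Psmc4 and Psmd9 in females and of Psmd9 and Psmb6 as the mean were thus lost. That setting called 1866 of 21787 genes in females and 2158 as the mean. With the mitochondrial mRNA level as a covariate, Psmd6 (−0.40, adjusted p = 0.128), Psmc4 (0.10, adjusted p = 0.809), Psmd9 (0.31, adjusted p = 0.220) and Psmb2 (−0.53, adjusted p = 0.217) did not pass in females. As the mean of both sexes Psmb6 (0.20, adjusted p = 0.0642) and Psme4 (−0.22, adjusted p = 0.0613) did not pass with it either, while Psma1 (−0.53, adjusted p = 0.0108) and Psmd8 (−0.51, adjusted p = 0.0221) passed in females. Psma4 (−0.69, adjusted p = 0.0074), Psma7 (−0.77, adjusted p = 0.0211) and Psmd7 (−0.51, adjusted p = 0.0351) also passed in females with it. The mean of Psma1 was −0.20 (adjusted p = 0.044) and was lost in 6 of 7 alternative analyses. Psmc4 lost its female call without any of 4 libraries (female controls 15 and 17, labelled knockouts 9 and 12; adjusted p up to 0.0756) and Psmd9 without any of 9 (adjusted p up to 0.138).

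The count in ribosomal RNA of females was also computed without the 3 control libraries that stood apart. It was then 13 members instead of 7, with 9 higher and 4 lower. Calls over all genes rose as well, from 1533 of 9098 to 2578 of 9639. Those libraries were singled out for high levels of these genes, so a higher value in labelled knockouts without them follows from the choice, and the values are a description with no test. The additional ones were Psmd1 (log2 0.80), Psmc1 (0.78), Psmb1 (0.66), Psmd4 (0.59), Psmd2 (0.56), Psmc5 (0.47) and Psmb8 (1.20). With all libraries Psmd1 was at −0.18 (adjusted p = 0.756) and Psmc1 at 0.01 (adjusted p = 0.990). Of the 7 members called with all libraries, 6 were kept, and Psma4 was not. Psmd8 was at −0.42 (adjusted p = 0.0085) and Psma1 at −0.47 (adjusted p = 0.000723). In males the same 2 members passed without male control 20, Psme4 (−0.48, adjusted p = 0.0040) and Psmd8 (−0.38, adjusted p = 0.0216). Female labelled knockouts had 6.53 to 12.5% of reads outside genes and 4976 to 23904 CPM of mitochondrial mRNA in ribosomal RNA, against 5.001 to 9.999% and 1318 to 6211 CPM in female controls. The part of reads outside genes in the female calls was not tested. The mitochondrial covariate largely runs with genotype in females, so it cannot tell its own part from that of the knockout. With it 595 of 9098 genes were called in females, against 1533 without it.

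In total RNA, 5 lid and base genes of the 19S particle fell as the mean of both sexes and 1 rose. Beside Psmd8, Psmd7, the lid partner of the deubiquitinase, fell by 0.21 (adjusted p = 0.0055), Psmd12 by 0.19 (adjusted p = 0.0058), Psmd1 by 0.18 (adjusted p = 0.0361) and Psmd3 by 0.21 (adjusted p = 0.0394). Psmd14, the deubiquitinase itself, rose by 0.21 (adjusted p = 0.0241). Psmd12 also fell in males alone, from 161 to 185 CPM (median 173) in controls to 141 to 160 CPM (median 149), by 0.21 (SE 0.069, adjusted p = 0.0377), and these groups did not overlap. Psmd7 ran from 287 to 420 CPM (median 311) in female controls and from 251 to 302 CPM (median 268) in female labelled knockouts. In males it ran from 295 to 392 CPM (median 313) and from 265 to 317 CPM (median 283), with 5 of 7 labelled knockouts of each sex below all controls. Of the barrel genes, Psma6 fell by 0.24 in males (SE 0.071, adjusted p = 0.0261) and by 0.15 as the mean (adjusted p = 0.0285). Psmb3 rose by 0.39 in males (SE 0.127, adjusted p = 0.0391), from 67.9 to 105 CPM (median 83.4) to 96.5 to 137 CPM (median 110), and by 0.25 as the mean (adjusted p = 0.0359). Psmd14 rose by 0.29 in males (SE 0.096, adjusted p = 0.0402), from 63.0 to 103 CPM (median 96.7) to 92.4 to 123 CPM (median 113). The mean calls of Psmd7 and Psmd12 held without any 1 library and in the 5 alternative analyses. Without the 5 total libraries above 19% of reads outside genes, the mean calls of Psmd1 (−0.13, adjusted p = 0.189), Psmd14 (0.13, adjusted p = 0.175), Psma6 (−0.12, adjusted p = 0.0930) and Psmb3 (0.17, adjusted p = 0.192) were lost. Psmd1 was also lost with voom (adjusted p = 0.103). With no low-count filter 5 of the 11 mean calls were kept, 1 higher and 4 lower, and Psmd3 was among those lost. That setting called 2901 of 27381 genes, against 3194 of 12860. Leaving out 1 of 28 libraries at a time lost the mean calls of Psmd1, Psmd3, Psma6 and Psmb3 in 11, 16, 7 and 9 cases. In males Psmd12, Psmb3, Psmd14 and Psma6 were lost without 10, 9, 8 and 3 of 14 single libraries (adjusted p up to 0.0864, 0.10, 0.103 and 0.0895). All 4 were lost, as were Psme4 and Psmb8, when these 5 libraries were left out, which include 3 of the 7 male controls, and Psmd8 alone was kept.

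Of the other activator genes and the inhibitor gene, only Psme1 passed in any of the 6 knockout comparisons. Psme1, a subunit of the interferon-induced PA28 cap, rose by 0.14 in total RNA as the mean of both sexes (adjusted p = 0.0496), from 43.4 to 54.3 CPM in female controls to 48.2 to 64.8 CPM and from 50.3 to 60.7 CPM in male controls to 56.5 to 67.4 CPM. Its call was lost in 4 of 5 alternative analyses and without any of 16 of 28 libraries. Psme2, the other PA28 subunit, had a mean log2 value of 0.43 (adjusted p = 0.0592) from 425 counts in all 28 total libraries. It and Psme2b are near-identical copies whose reads the counting could split. Psme3, the nuclear PA28 gene, had 0.14 (adjusted p = 0.0614). Psmf1, the inhibitor PI31, had 0.01 in total RNA (adjusted p = 0.971) and −0.59 (SE 0.261, adjusted p = 0.12) in ribosomal RNA of females. The 4 genes Psmg1 to Psmg4 of 20S assembly had log2 values between −0.28 and 0.27 over the 4 comparisons of a sex and RNA type.

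Of the remaining catalytic and ubiquitin-binding subunits, Psmb5, the chymotrypsin-like site, was at 40.4 to 69.8 CPM in ribosomal RNA of female controls and at 46.1 to 95.4 CPM in female labelled knockouts. Its log2 values ran from 0.06 in total RNA of females to 0.32 in ribosomal RNA of females (adjusted p = 0.821 and 0.234). Psmb7, the trypsin-like site, had −0.10 and −0.01 in ribosomal RNA of females and males and 0.08 and 0.19 in total RNA. Psmb6 had 0.11 and 0.19 in total RNA of females and males (adjusted p = 0.485 and 0.143). The ubiquitin receptor gene Psmd4 had 0.15 and −0.37 in ribosomal RNA (adjusted p = 0.725 and 0.381). Psmd2, which binds shuttle proteins, had 0.33 and −0.11 (adjusted p = 0.234 and 0.781).

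Whether the knockout effect differed between sexes was tested as a difference of effects, male minus female. In ribosomal RNA 1 of 44 members passed, Psma1, at 0.65 (SE 0.142, adjusted p = 0.0105), with 3.43% of all genes passing. The value did not pass with the mitochondrial mRNA covariate, with which 22 of 9098 genes passed, against 312 without it. In total RNA edgeR called 0 of 47 members and 0% of all genes. At an unadjusted p under 0.05 there were 0 members and 1225 genes, and DESeq2 called 0 members and 24 genes. Without the 3 control libraries the sex difference of Psmd1 was −0.80, of Psmc1 −0.74 and of Psmd4 −0.66, given as a description for the same reason.

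Whether the effect differed between ribosomal and total RNA was tested likewise, ribosomal minus total. In females Psmd6 (−0.52, SE 0.142, adjusted p = 0.0293) and Psma1 (−0.49, SE 0.136, adjusted p = 0.0306) passed of 46 members, with 3.46% of all genes passing. Neither passed with the mouse as a block. Without the 3 control libraries 8 members passed, 4 in each direction, while all genes passing rose from 434 of 12546 to 1041 of 12904. Those libraries were singled out for high levels of these genes, so the 8 are a description. Psme2 (−1.82), among them, had been left out by the filter in ribosomal RNA. In males edgeR and DESeq2 each called 0 of 46 members, with 0.128% of all genes passing in edgeR. At an unadjusted p under 0.05 there were 2 members and 1110 genes.

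Male and female controls differed in Psmd8 in both RNA types. The male controls given above were higher by 0.51 in ribosomal RNA (SE 0.116, adjusted p = 0.0033) and by 0.50 in total RNA (SE 0.101, adjusted p = 0.0014), with 6 of 7 and 3 of 7 male controls above every female control. Psmd8 was 1 of 3 of 44 members called in ribosomal RNA, where 7.63% of all genes passed, and 1 of 3 of 47 called in total RNA, where 8.7% passed. Psma7 (−0.66, adjusted p = 0.0384) and Psmc2 (−0.56, adjusted p = 0.0487) were lower in ribosomal RNA of males, each without passing when any of 8 of 14 libraries was left out. Leaving out male control 20 alone raised the count in ribosomal RNA from 3 to 15. The share of all genes in that fit is not given, so this rise cannot be told apart from one over all genes. In total RNA Psmd6 was at 198 to 230 CPM (median 218) in female controls and at 157 to 197 CPM (median 171) in male controls. The 7 male values lay below the 7 female ones (3.23% of all genes did not overlap in either direction), with a log2 difference of −0.31 (SE 0.072, adjusted p = 0.0054). Without the 5 total libraries above 19% of reads outside genes it was −0.23 (adjusted p = 0.0537). Psmc6 was lower by 0.32 (adjusted p = 0.0498), a call lost in 5 of 6 alternative analyses.

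Ribosomal and total RNA of the same control groups were compared with CPM scaled over all 56 libraries. Proteasome genes were higher in ribosomal RNA nearly throughout. In female controls 38 of 46 members were higher and 1 lower, while 30.1% of all genes were higher and 38.1% lower (68.1% changed). In male controls 41 were higher and 2 lower, while 32.1% of all genes were higher and 38.6% lower (70.7% changed). The median log2 difference of the members was 0.89 in females and 0.82 in males, and that of all genes −0.12 and −0.09. In 27 members of females and 33 of males, all 7 ribosomal libraries lay above all 7 total libraries (16.1% and 15.9% of all genes did so).

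By role, all 6 ATPases, all 11 other 19S subunits and all 4 chaperones of 20S assembly were higher in ribosomal RNA in both sexes. The alpha ring had 5 of 7 higher in females and 6 of 7 in males, and the constitutive beta ring 6 of 7 and 7 of 7. The ATPase gene Psmc1 ran from 155 to 247 CPM in total RNA of female controls and from 346 to 1773 CPM in ribosomal RNA, a log2 difference of 2.17, and 1.47 in males. Psmd4 ran from 108 to 227 CPM and from 269 to 1097 CPM, differences of 2.02 in females and 1.62 in males. The catalytic Psmb5 ran from 21.7 to 28.7 CPM and from 49.3 to 80.4 CPM, differences of 1.22 and 1.34. Psmd1, at 1.97 and 1.19, and Psmc1 are among the genes raised in the 3 ribosomal libraries that stood apart. Without those libraries Psmc1 differed by 1.44 in females and 1.05 in males, Psmd1 by 1.03 and 0.80, and Psmd4 by 1.61 and 1.34. The members then had 38 higher and 2 lower in females and 40 higher and 2 lower in males, with a median of 0.83 and 0.76. The differences of Psmd8 (0.74 and 0.75) and Psme4 (0.77 and 1.02) were smaller in females than the median of the members.

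The immunoproteasome split. Psmb10 was higher in ribosomal RNA by 1.52 in females and 1.15 in males. Psmb9 differed by −2.12 in females and −2.08 in males. It passed the filter on low counts only through the total libraries, where it is higher, so its difference is a description and no test, although it is 1 of the members counted as lower. It ran from 2.88 to 7.23 CPM in total RNA of female controls and from 0 to 4.23 CPM in ribosomal RNA, from 51 counts in all 28 ribosomal libraries. Psmb8 differed by −0.97 in males (adjusted p = 0.0021) and by −0.62 in females (adjusted p = 0.0659), where it was −0.85 without the 3 libraries. The 8 leukocyte markers tested had a median of −2.41 in females, with 7 lower, while all genes had a median of −0.12 and 38.1% lower. Not all of them passed the filter in ribosomal RNA alone, so this too is a description. Whether leukocyte RNA in the total lysate accounts for Psmb8 and Psmb9 was not tested. Psma3 (−0.11 and −0.13), Psmd5 and Psme2 did not pass in either sex. Psma1 in males was at 0.21 (adjusted p = 0.0406) and turned to −0.02 with RLE size factors (adjusted p = 0.847) and −0.03 with DESeq2 (adjusted p = 0.787). RLE moved the median of all genes from −0.12 to −0.35 in females and from −0.09 to −0.32 in males. With RLE 35 members were higher and 4 lower in females and 36 and 4 in males, and their median lay at 0.68 and 0.60.

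**Figure D4:**
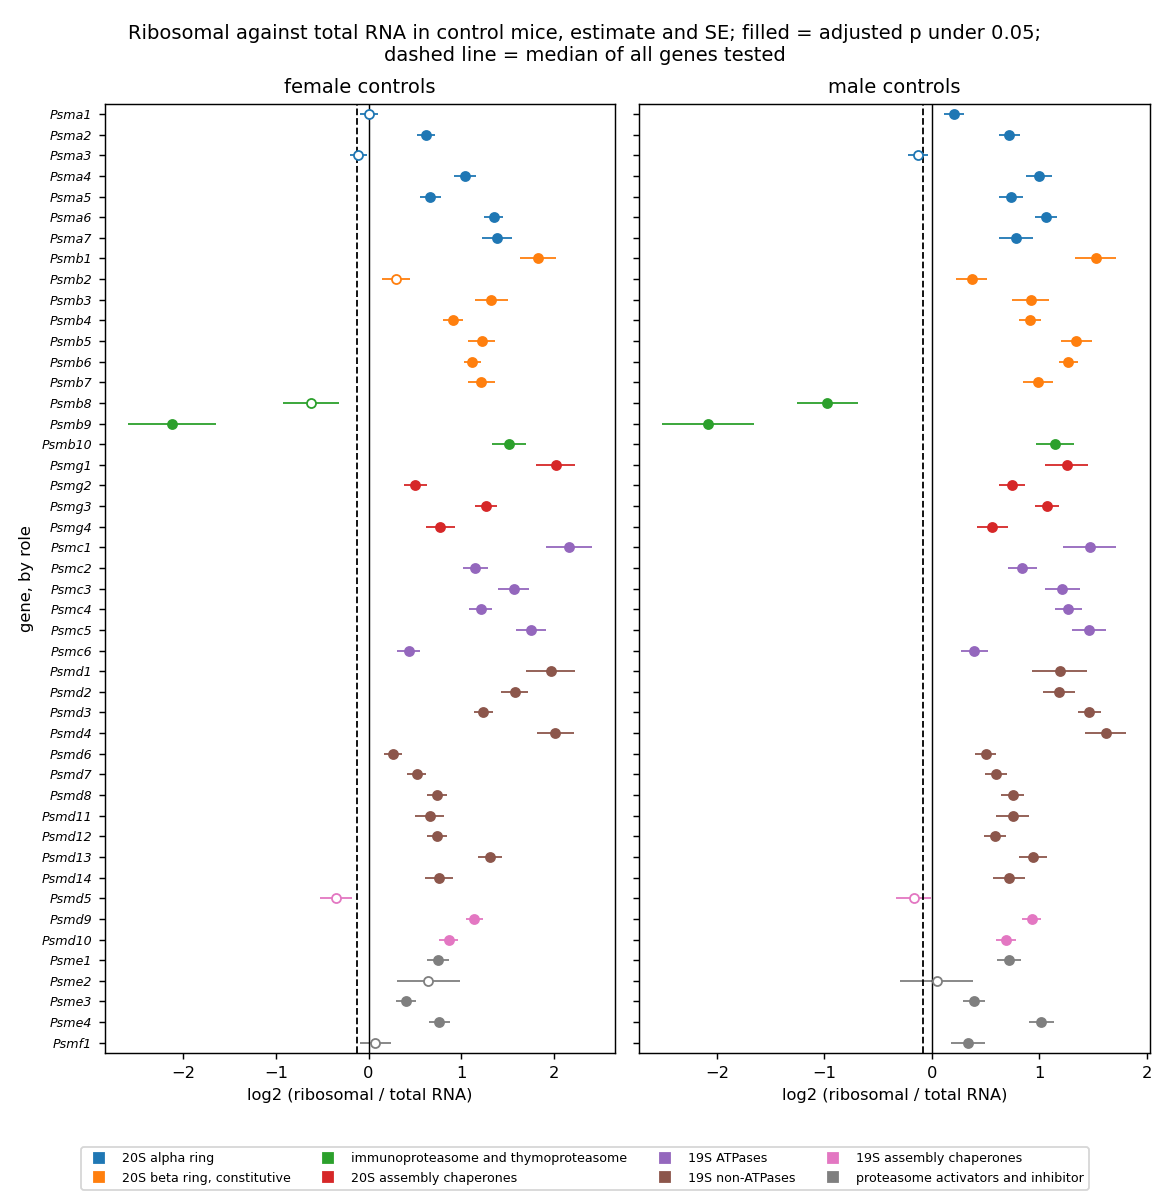
Log2 ratio of ribosomal to total RNA (x axis, estimate with standard error as bars) of each member tested in female (left) and male (right) controls, by role; filled points passed an adjusted p of 0.05 and the dashed line is the median of all genes tested (−0.12 and −0.09). Members other than Psmb9, Psmb8 and a few near 0 lie to the right of 0, up to 2.17 for Psmc1 in females.

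Genes that act with the proteasome were taken from lists of known function. Among 18 other proteasome-bound proteins and assembly factors, 1 rose and 8 fell in total RNA as the mean of both sexes (median −0.17, all genes 0.01), while 24.8% of all genes changed. Zfand5, which activates the proteasome in wasting muscle, fell by 0.37 (adjusted p = 2.49e-05), Akirin2, which brings proteasomes into the nucleus, by 0.30 (adjusted p = 0.0039), and Sem1, a small lid subunit, rose by 0.29 (adjusted p = 0.017). In ribosomal RNA of females Zfand5 fell by 0.79 (adjusted p = 1.7e-06) and Akirin2 by 0.84 (adjusted p = 1.17e-05), with 3 of 18 lower in all, beside 16.8% of all genes changed. Among 18 tested regulators of proteasome genes and their processing factors, 1 rose and 6 fell in total RNA (median −0.15), again beside 24.8% of all genes. Nfe2l1 fell by 0.35 in females (adjusted p = 0.0014) and 0.32 in males (adjusted p = 0.0033), and by 0.34 as the mean (adjusted p = 1.2e-05). Ddi2, the protease that activates the Nfe2l1 protein and a member of both lists, fell by 0.30 (adjusted p = 0.0043), and Derl1, a channel protein of the endoplasmic reticulum, by 0.25 (adjusted p = 0.000659).

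Among 18 muscle ubiquitin ligases, 9 fell in total RNA as the mean of both sexes (median −0.21), while 24.8% of all genes changed. Nedd4l fell by 0.44 (adjusted p = 0.000302), Ubr2 by 0.41 (adjusted p = 0.000411), Mdm2 by 0.34 (adjusted p = 0.00225) and Fbxo31 by 0.37 (adjusted p = 0.0031). The atrophy ligase Fbxo32, named outside the 4 of lowest p after its values were seen, fell by 0.71 (adjusted p = 0.0066), with log2 values of −1.11 in females (adjusted p = 0.0083) and −0.31 in males (adjusted p = 0.455). The 18 ligases summed to 3630 to 7272 CPM (median 3758) in total RNA of female controls and to 2963 to 3470 CPM in female labelled knockouts. Fits without single libraries were kept for members only, so whether the fall of Fbxo32 rests on 1 library was not tested. Of 11 tested genes of antigen presentation, 3 rose in total RNA as the mean, a share near the 24.8% of all genes, with B2m by 0.30 (adjusted p = 0.0034), Irf1 by 0.29 (adjusted p = 0.0143) and H2-D1 by 0.23 (adjusted p = 0.0268). In ribosomal RNA of females 5 of 11 rose (16.8% of all genes changed), led by H2-D1 at 1.31 (adjusted p = 0.000186), beside the leukocyte, endothelial and fibroblast markers given above, whose part was not tested.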

How the data were processed

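The deposited table holds whole-number counts per gene for 56 libraries of 28 mice, made from 500 ng RNA with a 3' tag kit and 50 base reads, per the labels' protocols. The authors' tools were UMI-tools, STAR, HTSeq and DESeq2 1.40.1 in R 4.3.0 on build GRCm39, per the submitters' processing notes. Strand and annotation settings are not given in the sources used here. The 5 summary lines (reads outside genes, ambiguous, not unique and the like) were left out of library sizes, and 62.18 to 77.49% of reads were in genes. Symbols covered 52029 identifiers and 97.56% of counts. No 2 libraries were identical.

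Counts were tested with edgeR 4.0.16 (R 4.3.3): low counts filtered by group, TMM factors, quasi-likelihood fit, Benjamini-Hochberg adjustment over all genes, threshold 0.05. Ribosomal and total libraries were fitted apart with 4 group means. Contrasts of RNA types used 1 fit of 56 libraries with 8 means. Fold changes are edgeR's log2 values. Alternatives were RLE factors, no filter, DESeq2 1.42.0, limma 3.58.1 voom with sample weights, only the 14 libraries compared, the mouse as a block, and each library left out. Libraries under 0.75 M counts, libraries that stood apart, those over 19% outside genes, and a covariate of 13 mitochondrial mRNAs were chosen after seeing the data. The members, lists and tests were chosen with earlier results of these data known. Members named with values were those called in any contrast, the catalytic, ubiquitin-binding, activator and inhibitor genes, and at most 4 genes of lowest p in each other list.

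The scripts were tested on simulated data. Of genes changed by 0.5 on the log2 scale, 18% were recovered for the knockout in ribosomal RNA of females and 48% in their total RNA. For ribosomal against total RNA of female controls 29% were. At a change of 1 these shares were 70.7, 78.6 and 74.7%. A member that did not pass can thus still differ by 0.5. Same-numbered libraries come from 1 mouse, per the labels. Their deviations over 500 variable genes had a mean correlation of 0.06 (female) and −0.15 (male) among controls, and of 0.15 (female) and 0.05 (male) among labelled knockouts. Of 5040 possible pairings, 156 (female) and 4798 (male) were at least as high among controls, the labelled one included. Among labelled knockouts 6 (female) and 772 (male) were. In males the pairing, and what was said of the same mice, thus rests on the labels alone. Sequences came from RefSeq tables of GRCm38.p6, which served for names and promoters only, and 3' UTRs from the gene models of the same reference.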

Additional observations from a re-analysis of the deposited data

Results flagged for a closer look

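In a group of 7 libraries, a value was singled out when its gap to the nearest other value, as a share of the group's range, was above Dixon's critical value. Chance alone picks about 1 in 20 groups. Over 240 combinations of 30 named members and 8 groups, 33 values were singled out, and most came from 3 mice.

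Female control 21 in total RNA was the highest of its group for 10 members. It held 366.1 CPM of Psma1 (others 219.7 to 279.8), 175.8 of Psma4 (109.1 to 129.8), 291.7 of Psma6 (221.8 to 242.4) and 382.6 of Psmb6 (238.3 to 296.3). The 19S genes were at 303.7 CPM for Psmc2 (192.5 to 215.8), 503.4 for Psmc6 (317.8 to 387.6), 219.5 for Psmd12 (153.9 to 170.4) and 337.7 for Psmd3 (189.6 to 226.4). Psmd4 was at 278.6 CPM (131.5 to 185.9) and Psmd7 at 419.6 CPM (287.1 to 326.2).

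Male control 20 in ribosomal RNA, 1 of the 3 libraries that stood apart, was the highest of its group for 9 members. It held 194.9 CPM of Psmb3, 68.23 of Psmb5, 319.7 of Psmb7 and 118.9 of Psme1. Of the 19S genes it held 1505 CPM of Psmd1, 883.0 of Psmd2, 781.7 of Psmd4, 452.2 of Psmd7 and 193.0 of Psmd14.

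Male labelled knockout 2 had the shallowest ribosomal library, 0.16 M counts, in which 1 count is worth several CPM. There Psma4 (240.7 CPM), Psmb10 (36.47) and Psmb9 (7.295) were the highest of the group, and Psmc6 (175.1), Psmd12 (87.54) and Psmd14 (43.77) the lowest. In total RNA of the same mouse Psmb7 (193.7 CPM), Psmd3 (279.1) and Psmd4 (208.7) were the highest. Single values elsewhere were Psma4 in female labelled knockout 9 (202.5 CPM), Psmb5 in female labelled knockout 12 (95.39), Psmd3 in female labelled knockout 6 (431.6) and Psmc4 in male labelled knockout 12 (113.5), all in ribosomal RNA. In total RNA, Psmb9 was at 18.17 CPM in male labelled knockout 10 (others 5.375 to 10.8).

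For 3 results the test of a difference between effects passed. The knockout effect on Psma1 in ribosomal RNA was higher in males than in females by 0.65 (log2, adjusted p = 0.0105). In females, the effect in ribosomal RNA was below that in total RNA for Psmd6 (difference −0.52, adjusted p = 0.0293) and Psma1 (difference −0.49, adjusted p = 0.0306).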

How the results depend on the processing

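Counts of proteasome genes called are given beside the count in the report. For the knockout in ribosomal RNA of females (7), 4 were called with only the 14 libraries compared and 13 without the 3 libraries that stood apart. Over all genes these settings called 936 of 7035 and 2578 of 9639, against 1533 of 9098. In males (2), DESeq2 and voom each called 4. Over all genes they called 846 of 21787 and 1749 of 9098, against 815 of 9098. As the mean of both sexes (5), 11 were called without those 3 libraries and 8 with the mitochondrial mRNA covariate. Over all genes these settings called 2690 of 9639 and 1435 of 9098, against 1839 of 9098. In total RNA of females (2), the count was 1 with no low-count filter, 4 with DESeq2 and 1 with only the 14 libraries compared. Over all genes these settings called 862 of 27381, 1267 of 27381 and 1133 of 12138, against 1092 of 12860. In males (7), it was 3 with no filter and 1 without libraries over 19% of reads outside genes. As the mean (11), it was 5 and 7 under these settings. Over all genes they called 1547 of 27381 and 645 of 13264 in males, against 1824 of 12860. As the mean they called 2901 of 27381 and 2316 of 13264, against 3194 of 12860. The sex difference in ribosomal RNA (1) had 3 with DESeq2, 2 with voom, 4 without the 3 libraries and 0 with the covariate. Over all genes these settings called 371 of 21787, 684 of 9098, 896 of 9639 and 22 of 9098, against 312 of 9098. Male against female controls in ribosomal RNA (3) had 5 with DESeq2, 15 with voom and 1 with only the 14 libraries compared. Over all genes these settings called 738 of 21787, 1874 of 9098 and 538 of 8577, against 694 of 9098. The RNA type difference in females (2) had 0 with RLE factors, 0 with no filter, 1 with DESeq2 and 8 without the 3 libraries (1041 of 12904 genes passed in this last setting). The other settings called 403 of 12546, 242 of 28600 and 493 of 28600 genes, against 434 of 12546. Psma1 in ribosomal against total RNA of male controls turned from 0.21 to −0.022 with RLE factors and −0.030 with DESeq2. The causes were not tested.

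With the mouse as a replicate block, the RNA type difference in females had 0 calls and that in males 0. Ribosomal against total RNA had 39 in females, as without it, and 41 in males, against 43 without it. A block could not be fitted within an RNA type, where each mouse has 1 library.

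Leaving out 1 library gave these ranges of calls, with no share of all genes to set beside them. The knockout in ribosomal RNA gave 4 to 7 in females, 1 to 2 in males and 4 to 7 as the mean. In total RNA it gave 0 to 3, 3 to 7 and 6 to 15. The sex difference gave 1 to 2 in ribosomal RNA and 0 to 0 in total RNA. Male against female controls gave 1 to 15 in ribosomal and 2 to 4 in total RNA. Ribosomal against total RNA gave 39 to 40 in females and 40 to 43 in males, and the RNA type difference 0 to 4 in females and 0 to 0 in males.

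Ribosomal depth, down to 0.16 M counts, limits what can be seen in the immunoproteasome genes.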
